A study of Mus musculus with 6 samples.

Results

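The genes described here are those of oxidative phosphorylation, the protein-coding genes of mouse whose symbols start with Nduf, Uqcr, Atp5, Cox4 to Cox8, mt-Nd, mt-Co, mt-Atp or mt-Cytb in the GENCODE M21 annotation, together with Sdha, Sdhb, Sdhc, Sdhd, Cycs and Cyc1. The rule found 109 genes, and 108 of the 49315 genes in the count table were among them. Of these, 95 were nuclear and 13 were encoded by mitochondrial DNA. The nuclear genes comprised 86 subunits (36 of complex I, 4 of complex II, 9 of complex III, 20 of complex IV, 16 of complex V, and cytochrome c), 8 assembly factors of complex I (symbols starting with Ndufaf) and Atp5s, which is also not a structural subunit. The rule reads gene names, and no measured value enters it.

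Expression was measured by bulk RNA-seq in Tregs (regulatory T cells, a CD4+ population marked by the transcription factor Foxp3) of the skin and the skin-draining lymph nodes (SDLNs) of 9-day-old Foxp3-GFP reporter mice, in which green fluorescent protein marks Foxp3-expressing cells. The labels name no treatment for either group. According to the methods of the study, tissue was digested, cells of 3 mice were pooled into each sample, CD45+ cells were enriched on magnetic beads, and DAPI- CD45+ CD4+ Foxp3-EGFP+ cells were sorted into lysis reagent. Each tissue gave 3 libraries, all given batch 1 in the labels, whose tissue field reads skin for the SDLN samples as well, so that the groups rest on the sample titles. The columns carry the letters A to C, which were tied to no replicate number, and libraries are named by tissue and letter. Values of single libraries are given in the order A, B, C throughout.

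Oxidative phosphorylation is the process by which mitochondria make ATP. Complex I (NADH dehydrogenase) and complex II (succinate dehydrogenase) pass electrons to ubiquinone, complex III passes them to cytochrome c, and complex IV (cytochrome c oxidase) passes them to oxygen, while the proton gradient built by complexes I, III and IV drives the ATP synthase, complex V. Complex II is built wholly from nuclear genes and the other complexes from both genomes, and Tregs are known to rely on mitochondrial respiration more than conventional effector T cells do. The comparison of the libraries asks whether these genes differ in level between Tregs of the skin and of the draining lymph nodes.

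The skin libraries were far shallower, with 3748669 to 11741784 counts against 47243498 to 116158706 counts in the SDLN libraries. Levels are given in CPM, the counts-per-million scale relative to each library total. The floor was set at 3 counts, equal to 0.800, 0.255 and 0.332 CPM in skin Tregs and to at most 0.0635 CPM in an SDLN library, and a gene at or under it is called at the floor. Foxp3 had 0, 330 and 1 counts in skin Tregs, against 12208, 10133 and 1788 counts in the SDLN libraries, while Il2ra was over 500 CPM in every library and Ctla4, at 1181, 1322 and 796 CPM against 520, 583 and 353 CPM, was called higher in skin Tregs (adjusted p = 0.0447). The 6 Treg markers summed to 4907 to 7097 CPM in skin Tregs and 3747 to 4943 CPM in SDLN Tregs, which overlapped, with 1 called higher and 0 lower. Cd4 was at 0, 158 and 0.221 CPM in skin Tregs and 471, 537 and 302 CPM in SDLN Tregs. The 7 pan T cell markers summed to 3187 to 4650 CPM in skin Tregs, below the 7517 to 9452 CPM of SDLN Tregs, and none of the 7 passed the test (median log2 fold change -1.51). Of 16 markers of myeloid cells, 15 passed the test as higher in skin Tregs, with a summed level of 34722 to 60966 CPM against 442 to 777 CPM, and every one of the 16 was tested. Of 10 genes that respond to tissue digestion, 8 were higher in skin Tregs, with a summed level of 10467 to 28218 CPM against 2763 to 2862 CPM. Keratinocyte markers summed to at most 0.085 CPM in a skin library, against 7.93 to 9.59 CPM in SDLN Tregs, mostly Krt10, which was called lower in skin Tregs, and Krt5, Krt14 and Krt15 were at 0 in every library. B cell markers summed to 0, 0 and 2.66 CPM in skin Tregs and 54.9 to 89.7 CPM in SDLN Tregs, with 3 of 4 called lower, and all 4 brown fat markers were at 0 in the skin libraries. Fibroblast markers summed to 0, 90.6 and 0.775 CPM in skin Tregs, mostly Col3a1 and Col1a2 in skin Tregs B, against 1.44 to 7.56 CPM in SDLN Tregs. Muscle markers summed to 0, 0.17 and 73.7 CPM, wholly Mylpf in skin Tregs C, against 16.9 to 60.5 CPM. The part of these signals in the values below was not tested. In bulk RNA, fewer cells of a type and less RNA per cell cannot be told apart.

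The 13 mitochondrially encoded mRNAs differed widely in level. In SDLN Tregs 7 were at 85.3 CPM or more in every library and 6 at 14.3 CPM or less, and the 6 were at 1 CPM or less in every skin library. The 6 low genes included several whose sequence is repeated in nuclear DNA. The first bases of mt-Co2, mt-Co3, mt-Co1 and mt-Cytb that align with the closest annotated nuclear copy are shown with that copy, because identical reads cannot be assigned to a single place. Bases in capitals differ between the gene and its copy. All positions are in build GRCm38, the sequences are transcripts of GENCODE M21 read 5′ to 3′ on the strand of the gene, and each printed stretch is 60 bases long. For mt-Cytb and its copy the alignment, and thus the stretch, begins at the second base of the gene.
mt-Co2 (chrM:7013-7072, + strand): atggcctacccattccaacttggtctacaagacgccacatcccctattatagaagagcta
Gm28661 (chr1:24615506-24615565, - strand): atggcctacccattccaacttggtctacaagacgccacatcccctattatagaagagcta
mt-Co3 (chrM:8607-8666, + strand): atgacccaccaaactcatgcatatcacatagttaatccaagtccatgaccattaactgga
Gm28437 (chr1:24613912-24613971, - strand): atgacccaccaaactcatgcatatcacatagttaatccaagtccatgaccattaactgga
mt-Co1 (chrM:5328-5387, + strand): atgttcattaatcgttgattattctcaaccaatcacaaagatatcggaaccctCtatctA
Gm13340 (chr2:22589588-22589647, - strand): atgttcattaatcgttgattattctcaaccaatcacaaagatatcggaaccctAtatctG
mt-Cytb (chrM:14146-14205, + strand): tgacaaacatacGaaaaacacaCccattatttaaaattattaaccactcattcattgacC
Gm11410 (chr4:80003990-80004049, + strand): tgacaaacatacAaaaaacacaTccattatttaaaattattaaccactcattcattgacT
Over these stretches mt-Co2 and mt-Co3 were identical to their chromosome 1 copies, whereas mt-Co1 and its chromosome 2 copy differed at 2 bases and mt-Cytb and its chromosome 4 copy at 3.

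Over the whole transcripts, the measure was the share of all 150-base windows that also occurred, letter for letter, in a transcript of another annotated gene. That share was 99.4% for mt-Co2 (copy Gm28661, chr1:24614885-24615565), 99.8% for mt-Co3 (copy Gm28437, chr1:24613189-24613971), 99.4% for mt-Atp6 (copy Gm10925, chr1:24613974-24614651), 98.0% for mt-Nd4l and 97.0% for mt-Nd3. It was 59.2% for mt-Nd4 and 23.6% for mt-Co1, and 0 for mt-Cytb, mt-Nd1, mt-Nd2, mt-Nd5, mt-Nd6 and mt-Atp8. The 5 genes at 97.0% or more were at 14.3 CPM or less in every library. The 7 genes mt-Cytb, mt-Co1, mt-Nd1, mt-Nd2, mt-Nd4, mt-Nd5 and mt-Nd6, all at 59.2% or less, were at 85.3 CPM or more in every SDLN library. The gene mt-Atp8 broke this pattern, at 0.085 to 0.316 CPM in the 6 libraries with no annotated copy. Only annotated transcripts were searched, so its share of 0 does not show that mt-Atp8 lacks a nuclear copy. It lies between mt-Co2 and mt-Atp6, and the unannotated bases between their chromosome 1 copies, Gm28661 and Gm10925, were not searched. At 204 bases long, mt-Atp8 shares its last 43 bases with mt-Atp6, whose start codon is in capitals in that stretch.
mt-Atp8/mt-Atp6 overlap (chrM:7927-7969, + strand): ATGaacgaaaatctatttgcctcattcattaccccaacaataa
The mitochondrial ribosomal RNAs were not analysed here.

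**Figure D1:**
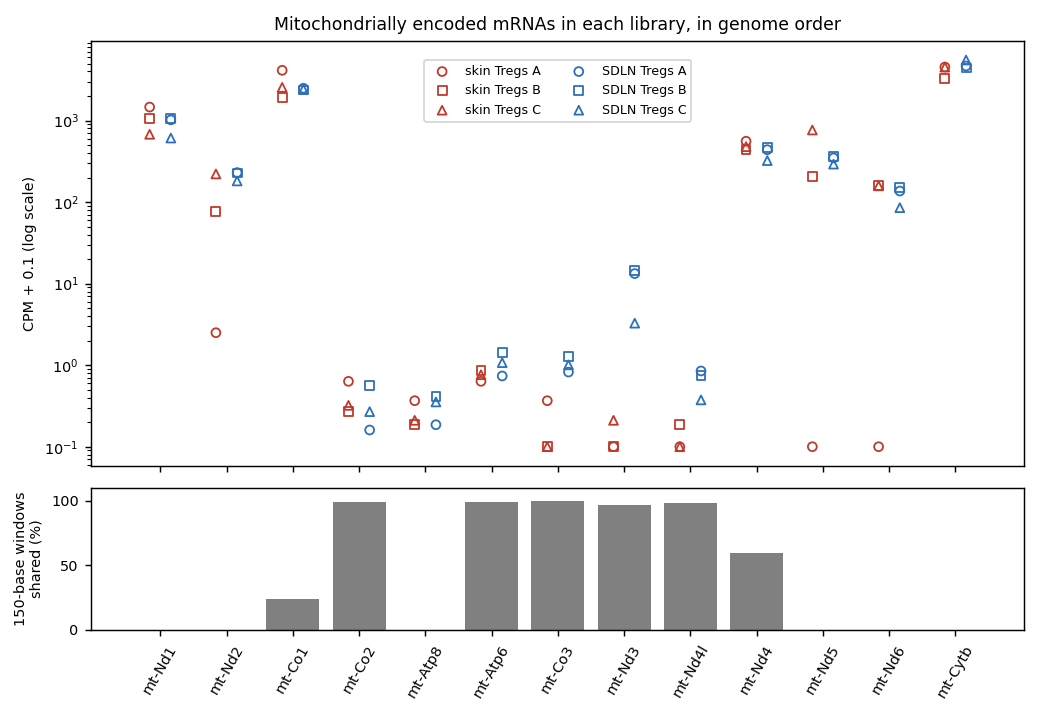
The upper panel plots CPM plus 0.1 (log scale) of the 13 mitochondrially encoded mRNAs in genome order, with 1 point for each of the 3 skin Treg (red) and 3 SDLN Treg (blue) libraries, and the lower panel plots the percentage of 150-base windows identical to another annotated gene. Of the 6 lowest genes, 5 have bars at 97.0% or more and mt-Atp8 has none, and mt-Nd5 and mt-Nd6 are at 0 in skin Tregs A alone.

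Leaving aside the 5 genes with 97.0% or more of their windows in another annotated gene, the most abundant mitochondrial mRNA was mt-Cytb. It encodes the only subunit of complex III made in the mitochondrion. It was at 4534, 3283 and 4521 CPM in skin Tregs, compared with 4663, 4401 and 5516 CPM in SDLN Tregs. The groups overlapped, and the log2 fold change, skin over SDLN, was -0.26 (SE 0.284; adjusted p = 0.645 in edgeR's quasi-likelihood test with Benjamini-Hochberg adjustment over all 13572 genes tested, which gave every fold change, SE and adjusted p below unless DESeq2 is named). The gene took 42.4% to 48.2% of the mitochondrial counts in skin Tregs and 48.6% to 58.5% in SDLN Tregs.

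The catalytic subunit of cytochrome c oxidase, mt-Co1, was at 4129, 1927 and 2551 CPM in skin Tregs and 2486, 2365 and 2411 CPM in SDLN Tregs. Skin Tregs A was the highest library and skin Tregs B the lowest, so that the skin values enclosed those of all SDLN Tregs (log2 fold change 0.16, SE 0.230, adjusted p = 0.768, with the sign turning to -0.10 when skin Tregs A was left out). Per kilobase of exon, mean levels in SDLN Tregs were 4248 for mt-Cytb, 1567 for mt-Co1 and 939 for mt-Nd1, and the same 3 genes led in skin Tregs at 3595, 1857 and 1115 CPM per kilobase. Among the nuclear genes, the highest mean in SDLN Tregs on this scale was 476 CPM per kilobase, for Uqcr10 of complex III.

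The complex I subunit mt-Nd1 was at 1463, 1060 and 678 CPM in skin Tregs and 1020, 1067 and 610 CPM in SDLN Tregs, which overlapped (log2 fold change 0.16, SE 0.319, adjusted p = 0.851, and -0.06 without skin Tregs A). The subunit mt-Nd4 was at 558, 439 and 478 CPM against 439, 469 and 323 CPM, also overlapping (log2 fold change 0.24, SE 0.425, adjusted p = 0.814, and -0.06 without skin Tregs C). Neither passed the test.

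The other complex I subunits were uneven among the skin libraries. Levels of mt-Nd5 were 0, 205 and 765 CPM in skin Tregs against 348, 359 and 292 CPM in SDLN Tregs, and those of mt-Nd6, which lies on the opposite strand and shares 14 bases with mt-Nd5, were 0, 159 and 158 CPM against 137, 150 and 85.3 CPM. Levels of mt-Nd2 were 2.40, 77.2 and 221 CPM against 230, 228 and 182 CPM. All 3 genes were lowest in skin Tregs A, the shallowest library, in which mt-Nd1 and mt-Co1 were at their highest, and none passed the test.

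The test called mt-Nd3 and mt-Co3 lower in skin Tregs. The gene mt-Nd3 had 0, 0 and 1 counts in skin Tregs and 1532, 1039 and 150 counts in SDLN Tregs (adjusted p = 0.00486), and mt-Co3 had 1, 0 and 0 counts against 84, 85 and 43 (adjusted p = 0.0124). The call of mt-Co3 (log2 fold change -4.32) was lost without skin Tregs B (-3.46, adjusted p = 0.0582) and without skin Tregs C (-3.82, adjusted p = 0.0654). It was not tested without SDLN Tregs B, without SDLN Tregs C or at equal depth. Both mt-Nd3 and mt-Co3 were at the floor in every skin library. When each mitochondrial gene was summed with its chromosome 1 copy, an alternative chosen after seeing the data, mt-Co3 plus Gm28437 was at 13.9, 10.8 and 7.31 CPM in skin Tregs and 11.7, 11.8 and 11.9 CPM in SDLN Tregs, and was not called (log2 fold change -0.23, SE 0.388, adjusted p = 0.805). The sum of mt-Nd3 and Gm28438 was at 0, 0 and 0.111 CPM against 13.3, 14.5 and 3.24 CPM and was called lower (adjusted p = 0.00485). Gm28438 had 0 counts in each skin library, so this sum is close to mt-Nd3 alone and is no check of its call.

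For mt-Co2 the sum with Gm28661 was 5.60, 20.4 and 8.52 CPM in skin Tregs and 9.04, 8.63 and 5.19 CPM in SDLN Tregs, of which mt-Co2 itself gave at most 0.534 CPM. For mt-Atp6 the sum with Gm10925 was 37.6, 53.3 and 71.8 CPM against 25.97, 50.2 and 53.1 CPM, of which mt-Atp6 gave at most 1.33 CPM. In both pairs the groups overlapped and nearly all counts stood with the copy. The subunit mt-Nd4l was at 0.749 CPM or less in every library. The sums stayed far under the levels of mt-Co1 and mt-Cytb, and the part of the copies in these low counts was not tested.

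Summed over all 13 genes, mitochondrially encoded mRNAs made up 1.07%, 0.715% and 0.937% of the counts in skin Tregs, against 0.934%, 0.906% and 0.942% in SDLN Tregs. The mean share was 0.907% ± 0.179 (SD, n = 3) in skin Tregs and 0.927% ± 0.0192 (SD, n = 3) in SDLN Tregs. The skin libraries lay on both sides of the SDLN libraries and were spread more widely. The 5 genes with 97.0% or more of their windows in another annotated gene were at 14.3 CPM or less. These shares therefore describe mainly the other genes.

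The nuclear genes summed to 1.53%, 1.35% and 1.52% of the counts in skin Tregs and 1.74%, 1.47% and 2.04% in SDLN Tregs, with means of 1.47% ± 0.103 and 1.75% ± 0.286 (SD, n = 3 each). The ranges overlapped through skin Tregs A and C, which were above SDLN Tregs B. The ratio of mitochondrial to nuclear counts within a library, in which the library total cancels, was 0.697, 0.531 and 0.618 in skin Tregs and 0.537, 0.617 and 0.462 in SDLN Tregs. Skin Tregs A had the highest ratio and SDLN Tregs C the lowest, and the groups overlapped. The mitochondrial counts in this ratio carry the limit given above for their share.

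By complex, summed levels of the nuclear genes overlapped between the tissues for complexes I to IV. For complex I they were 6038, 4400 and 6538 CPM in skin Tregs and 5602, 4563 and 7579 CPM in SDLN Tregs. For complex III they were 2069, 1945 and 2051 CPM against 2431, 1862 and 3247 CPM, and for the nuclear genes of complex IV 2923, 1855 and 2724 CPM against 2893, 2423 and 2818 CPM. The sums of complex II were 294, 1171 and 937 CPM against 1153, 1025 and 1530 CPM, with skin Tregs A lowest. Complex V was the exception, with 3797, 3782 and 2495 CPM in skin Tregs, all below the 4967, 4464 and 4735 CPM of SDLN Tregs (means 3358 ± 747 and 4722 ± 252, SD, n = 3 each). An exact two-sided permutation test of 3 against 3 libraries cannot go below 0.10 even with such a separation. Among single genes tested, 53.6% lay below all SDLN libraries in every skin library.

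**Figure D2:**
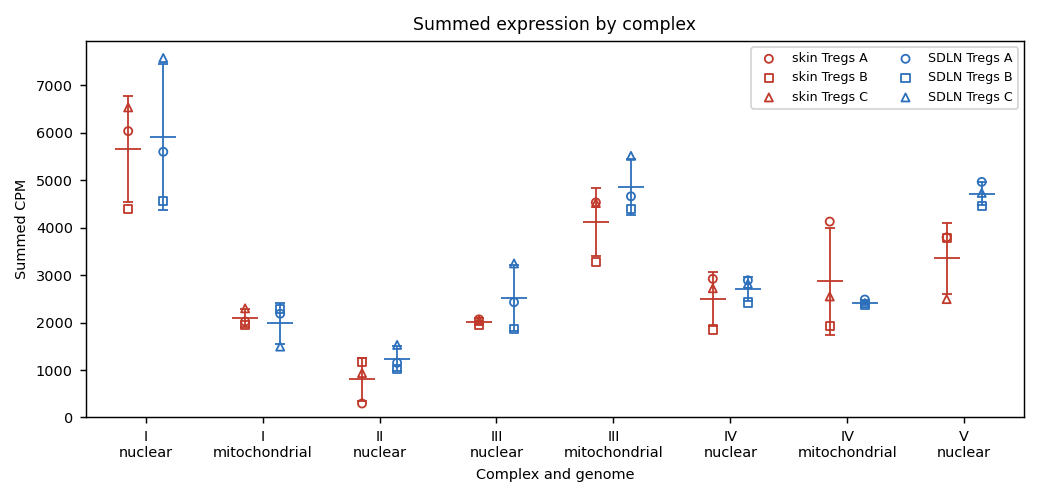
Summed CPM (y axis) of the genes of each complex by genome (x axis) for 3 skin Treg (red) and 3 SDLN Treg (blue) libraries, where points are libraries, bars the mean and whiskers the SD. The skin and SDLN points overlap for every set except the nuclear genes of complex V, where skin Tregs lie between 2495 and 3797 and SDLN Tregs between 4464 and 4967.

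Across the 108 genes, 99 had enough counts to be tested, and a gene could enter the test through the SDLN libraries alone. No gene of the 99 was called higher in skin Tregs by edgeR, where 1.04% of all genes tested were, and 0 had an unadjusted p under 0.05 with a higher level. Of the 99, 8 were called lower (8.08%), where 45.3% of all genes tested were. DESeq2 called 1 higher, where it called 2.98% of all genes, and 9 lower, where it called 47.8%, and limma voom with quality weights called 0 higher, where it called 0.892% of all genes, and 13 lower (13.1%), where it called 51.6%. All 3 skin libraries lay above all SDLN libraries for 3 genes (3.03%, against 2.39% of all genes tested), namely Ndufs1, Ndufs6 and Atp5l, and below them for 19 (19.2%, against 53.6%). Reads of Atp5l are less certain, since 44.6% of its 150-base windows also occur in other annotated genes. The median log2 fold change was -0.30 over the 99 genes and -2.21 over all genes tested, or -0.30 and -1.34 with genes at 0 in a whole group set at the bound that the floor allows. Among genes over 3 counts in all 6 libraries, a limit that removes genes absent from a skin library, the order was the other way, with a median of -0.23 over 58 genes of oxidative phosphorylation and 0.28 over all 1623 such genes.

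In skin Tregs, the 8 genes called lower never rose above the floor. They were mt-Nd3 and mt-Co3, 4 assembly factors of complex I, Atp5s, and the complex IV isoform Cox6b2, so that 1 of the 80 nuclear subunits tested was among them, and no other nuclear subunit had an unadjusted p under 0.05 in edgeR. The count of 1 subunit became 2 with DESeq2, 5 with limma voom, 4 without skin Tregs B or without C, 2 without skin Tregs A and 0 at equal depth. At equal depth 78 subunits were tested and Cox6b2 was not among them, so that its call was lost to the filter. The assembly factors had 0 counts in each skin library. Ndufaf1 (chr2:119655446-119662827, - strand), a core factor of the early assembly of complex I, was at 37.5, 42.5 and 48.0 CPM in SDLN Tregs, and thus at least 92.2-fold lower in skin Tregs against the mean floor of 0.463 CPM per library (adjusted p = 0.00449). Ndufaf4 (chr4:24898083-24905001, + strand) was at 41.7, 43.1 and 33.2 CPM in SDLN Tregs, at least 85.0-fold lower in skin Tregs.

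Ndufaf2 was at 14.5, 11.7 and 15.4 CPM in SDLN Tregs and Ndufaf6 at 11.98, 12.6 and 16.1 CPM, at least 29.97-fold and 29.28-fold lower in skin Tregs by the same bound. These 4 of 8 factors make a share close to the 45.3% of all genes called lower, and limma voom called Ndufaf3 as well. The 4 factors that edgeR did not call were each seen in some skin libraries, such as Ndufaf7, an arginine methyltransferase, at 0, 25.3 and 315 CPM against 47.7, 56.4 and 65.8 CPM. Summed over all 8 factors, levels were 112, 105 and 359 CPM in skin Tregs and 258, 250 and 341 CPM in SDLN Tregs, which overlapped because skin Tregs C was the highest library of all. Atp5s had 0 counts in skin Tregs and 6.05, 8.65 and 7.13 CPM in SDLN Tregs, at least 15.7-fold lower (adjusted p = 0.00322).

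**Figure D3:**
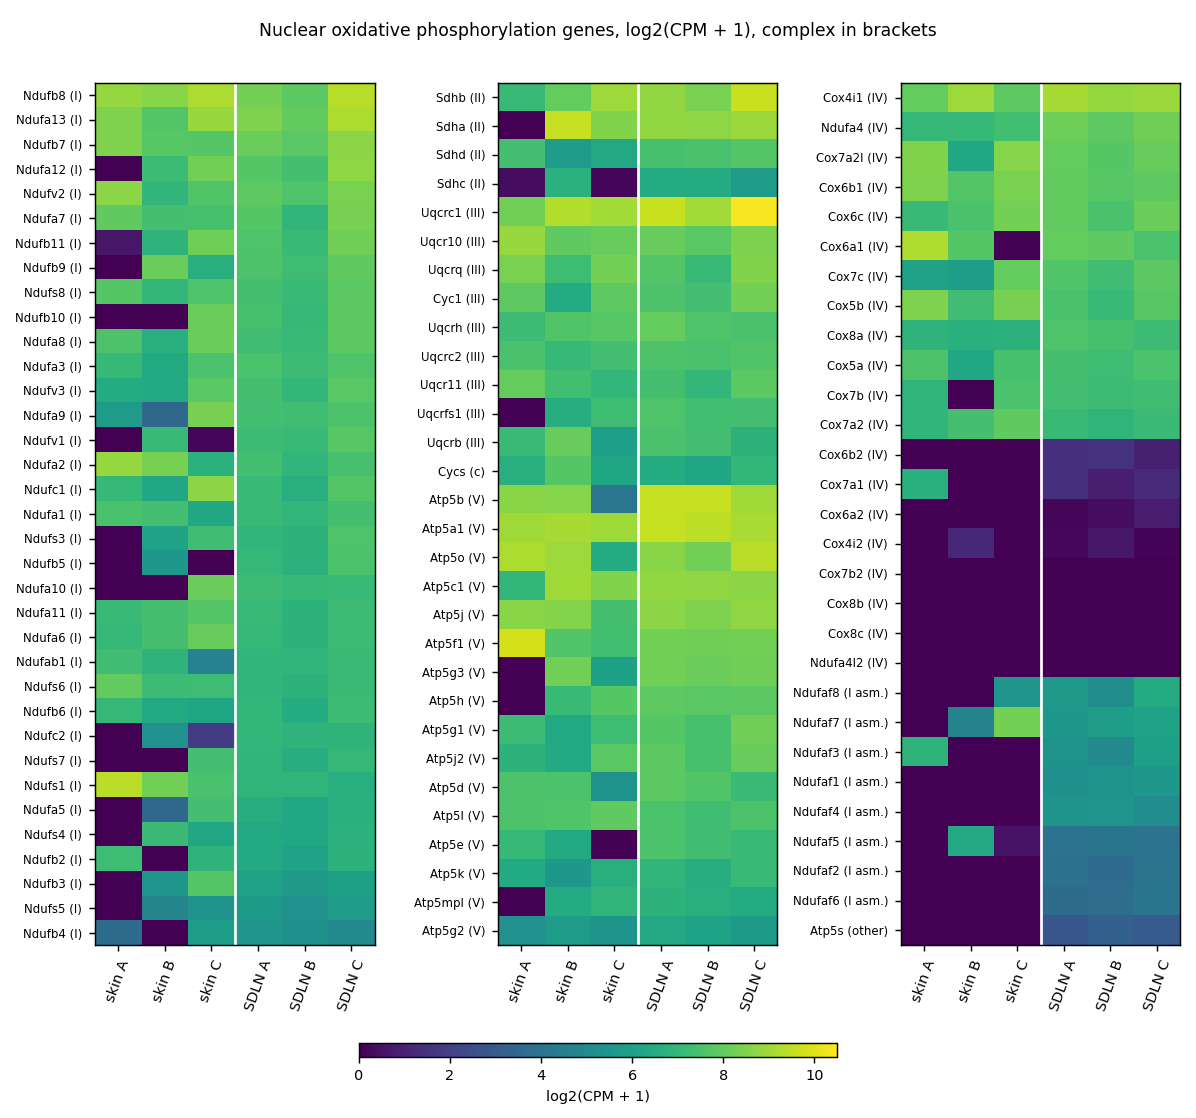
Levels of 94 of the 95 nuclear genes as log2(CPM + 1) (colour) in 3 skin Treg and 3 SDLN Treg libraries (columns), with genes as rows grouped by complex and ordered by their SDLN mean (c, cytochrome c; asm., assembly factor). The SDLN columns resemble each other, while dark cells, which mark genes with almost no counts, are scattered among the skin columns and most frequent in skin A.

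Which nuclear subunits were missing differed from one skin library to the next. Of 86 nuclear subunits, 53 were over the floor in all 3 skin libraries, 19 were at the floor in 1, 8 in 2 and 6 in all 3. Of those 6, 4 (Cox7b2, Cox8b, Cox8c and Ndufa4l2) were at the floor in the SDLN libraries too. Counting all 95 nuclear genes, 60, 75 and 76 were over the floor in skin Tregs A, B, C, compared with 91 in each SDLN library. With every library drawn down to 3748669 counts, the numbers were 60, 75 and 74 against 89, 88 and 88, so that no skin library reached an SDLN library at equal depth.

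The rate of detection depended on the level in SDLN Tregs. Of the 55 subunits between 100 and 300 CPM in SDLN Tregs, 76.4%, 92.7% and 92.7% were over the floor in skin Tregs, and 70.9% of the 55 were so in all 3 libraries. Of the 1703 other genes in that range, 38.2%, 76.8% and 70.3% were, and 26.7% in all 3. Of the 10 subunits between 30 and 100 CPM, 4, 8 and 9 were over the floor, against 20.9%, 49.7% and 42.85% of 3634 other genes. In the drawn-down SDLN libraries every one of these genes was over the floor. The higher share among subunits was not tested.

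**Figure D4:**
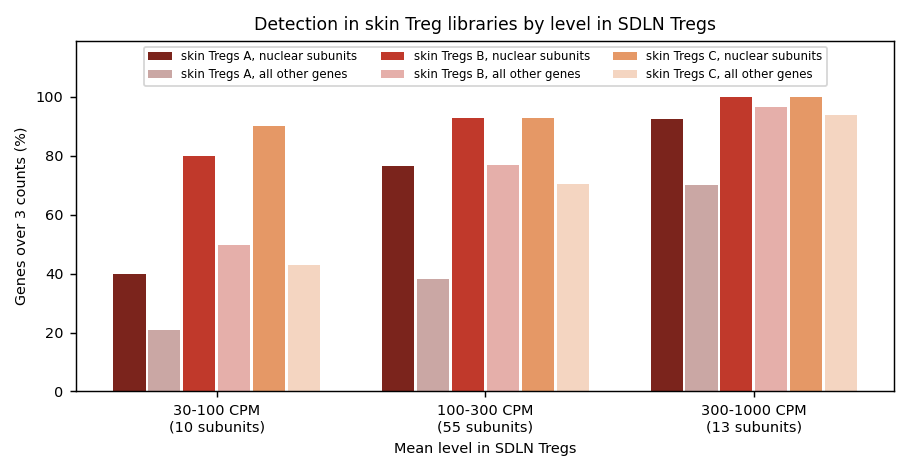
Percentage of genes over 3 counts (y axis) in skin Tregs A, B and C, for genes grouped by their mean level in SDLN Tregs (x axis), with nuclear subunits in full colour and all other genes in pale colour. Full bars are higher than the pale bars beside them in each group, for example 76.4% against 38.2% in skin Tregs A at 100 to 300 CPM.

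The profile of the subunits was close to the same in each SDLN library and differed among the skin libraries. Over the 78 nuclear subunits at 10 CPM or more in SDLN Tregs, Pearson correlations of log2(CPM + 1) across genes ranged from 0.839 to 0.98 among the SDLN libraries, from 0.018 to 0.376 among the skin libraries and from 0.170 to 0.558 across the tissues. The 8182 other genes were taken at a mean of 10 CPM or more over all 6 libraries, which is a different limit. Over them, correlations ranged from 0.932 to 0.971 among the SDLN libraries and from 0.269 to 0.335 among the skin libraries. Genes are not independent replicates, and the points share the library and its depth. Of the 78, 43, 52 and 58 were within 2-fold of their SDLN mean in skin Tregs, while 20, 6 and 5 were at the floor. The remainder lay over 2-fold above (7, 3 and 3) or below but over the floor (8, 17 and 12). Among the SDLN libraries, C was the highest for 53 of the 78.

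**Figure D5:**
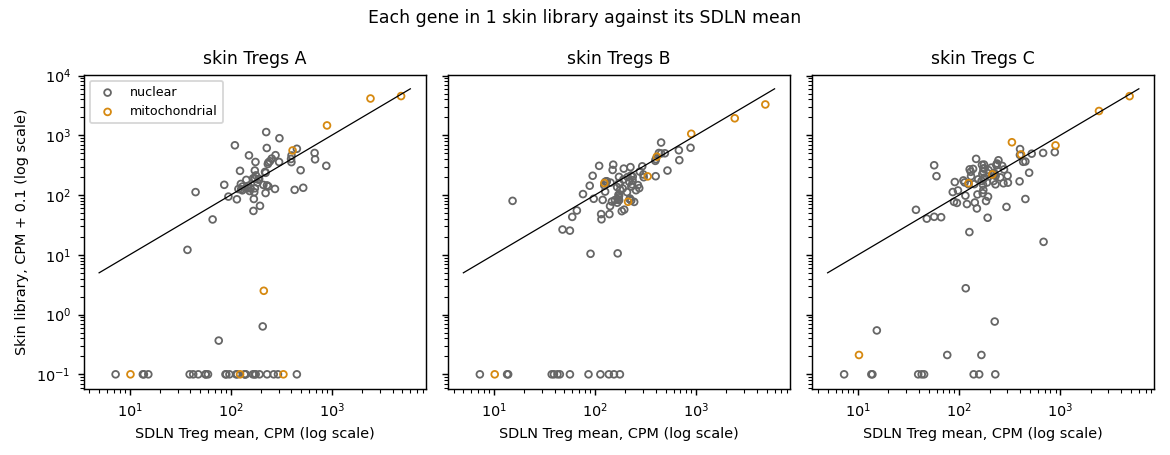
CPM plus 0.1 in skin Tregs A, B and C (y axis, 1 panel each, log scale) against the SDLN Treg mean CPM (x axis, log scale) for genes at 5 CPM or more in SDLN Tregs, with nuclear genes in grey, mitochondrial genes in orange and a line of equality. Of the 95 genes plotted, 47, 58 and 65 lie within 2-fold of the line in the 3 panels from left to right, and a row at the bottom holds the 29, 14 and 9 genes with 0 counts.

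In complex I, Ndufs1, the largest core subunit, which carries iron-sulphur clusters of the electron path, was higher in every skin library than in any SDLN library. It was at 681, 308 and 176 CPM in skin Tregs, compared with 115, 117 and 98.5 CPM in SDLN Tregs. The annotation places the lincRNA Ino80dos over part of the gene on the other strand, and without a stated strand setting the reads of the pair cannot be told apart. The log2 fold change was 1.62 (SE 0.663), with adjusted p = 0.106 in edgeR and 0.00208 in DESeq2 (log2 fold change 1.79, SE 0.547), so that DESeq2 called it and edgeR did not.

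Ndufv1, which binds NADH and flavin, was at 0, 136 and 0.111 CPM in skin Tregs and 146, 133 and 219 CPM in SDLN Tregs, and was called lower by limma voom and not by edgeR. Its partner Ndufv2 was at 408, 120 and 197 CPM against 240, 196 and 329 CPM. Among other core subunits, Ndufs8 was at 213, 122 and 195 CPM against 168, 138 and 228 CPM, Ndufs3 at 0, 65.2 and 152 CPM against 120, 110 and 193 CPM, and Ndufs7 at 0, 0 and 163 CPM against 121, 92.9 and 126 CPM. The groups overlapped for these 4 genes, and edgeR called none of them. The supernumerary subunits with the highest mean CPM were over the floor in every library. Ndufb8 was at 460, 398 and 588 CPM against 316, 232 and 654 CPM, and Ndufa13 was at 355, 207 and 468 CPM against 350, 252 and 597 CPM, with overlap in both. Some subunits were seen in a single skin library only, such as Ndufb10 at 0, 0 and 279 CPM and Ndufa10 at 0, 0 and 274 CPM, chosen here after their values were seen.

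Complex II oxidises succinate and also belongs to the tricarboxylic acid (TCA) cycle. Its flavin-binding subunit Sdha was at 0, 757 and 365 CPM in skin Tregs and 446, 425 and 486 CPM in SDLN Tregs (log2 fold change -0.13, SE 2.09, adjusted p = 0.988), with a sign that turned to 0.29 when skin Tregs A was left out. The iron-sulphur subunit Sdhb was at 132, 257 and 493 CPM against 447, 336 and 785 CPM (log2 fold change -0.71, SE 0.822, adjusted p = 0.669). The membrane anchor Sdhd was at 162, 53.7 and 79.4 CPM, below the 174, 177 and 203 CPM of SDLN Tregs in each library, and did not pass the test. The other anchor, Sdhc, was at 0.267, 104 and 0.111 CPM against 86.8, 87.1 and 55.0 CPM. It was called lower by limma voom and not by edgeR.

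In complex III, Uqcrc1, a core protein outside the electron path, was at 309, 618 and 523 CPM in skin Tregs and 780, 523 and 1350 CPM in SDLN Tregs (log2 fold change -0.84, SE 0.634, adjusted p = 0.428). The small subunits Uqcr10 and Uqcrq overlapped between the tissues, at 465, 247 and 268 CPM against 267, 226 and 342 CPM for Uqcr10 and at 331, 151 and 317 CPM against 203, 135 and 362 CPM for Uqcrq. The Rieske iron-sulphur protein Uqcrfs1 was at 0, 91.4 and 148 CPM, below the 193, 158 and 165 CPM of SDLN Tregs. None of the 9 nuclear genes of complex III passed the test.

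Cytochrome c1 (Cyc1), a subunit of complex III, hands electrons to the mobile carrier cytochrome c (Cycs), which takes them to complex IV. Cyc1 was at 236, 87.6 and 234 CPM in skin Tregs and 190, 162 and 314 CPM in SDLN Tregs. Cycs, which also acts in apoptosis, was at 94.2, 210 and 73.8 CPM against 89.0, 73.2 and 123 CPM (log2 fold change 0.39, SE 1.04, adjusted p = 0.901, and -0.30 without skin Tregs B). Its reads are less certain, since 21.8% of its windows also occur in the copy Gm10053. For both genes the groups overlapped.

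In complex IV the widely expressed isoforms carried nearly all counts. Cox4i1 was at 260, 500 and 236 CPM in skin Tregs and 536, 458 and 484 CPM in SDLN Tregs (log2 fold change -0.57, SE 0.547, adjusted p = 0.570), while Cox4i2, the isoform linked to low oxygen, was at 1.28 CPM or less in every library. Cox6b1 was at 352, 203 and 338 CPM against 254, 220 and 236 CPM, and Cox7a2l, which also joins complexes III and IV into supercomplexes, was at 369, 76.7 and 382 CPM against 261, 209 and 264 CPM. These genes overlapped between the tissues.

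The tissue-restricted isoforms were at 2 CPM or less in each SDLN library, and of them Cox7a1 alone exceeded that in a skin library. Cox6b2, known from testis, had 0 counts in skin Tregs and 1.73, 1.94 and 0.889 CPM in SDLN Tregs, at least 3.28-fold lower (adjusted p = 0.00652). Cox6a2, known from muscle, was at 0 in skin Tregs and at most 0.720 CPM in SDLN Tregs, against 614, 212 and 0 CPM and 260, 243 and 181 CPM for the widely expressed Cox6a1. Cox7a1, another muscle isoform, was at 101 CPM in skin Tregs A and 0 in skin Tregs B and C, and at 0.865 to 1.73 CPM in SDLN Tregs, whereas its counterpart Cox7a2 was at 120, 168 and 245 CPM against 136, 115 and 140 CPM. Cox8b and Cox8c had no counts in any library, while Cox8a was at 112, 101 and 107 CPM in skin Tregs, below the 195, 171 and 147 CPM of SDLN Tregs.

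Ndufa4, named for complex I and now placed in complex IV, was at 126, 131 and 157 CPM in skin Tregs and 290, 236 and 299 CPM in SDLN Tregs. The skin libraries lay close together and below all SDLN libraries. The log2 fold change was -0.97 (SE 0.697, adjusted p = 0.391) in edgeR and -0.90 (SE 0.3496, adjusted p = 0.0191) in DESeq2, so that DESeq2 called it lower and edgeR did not. Its relative Ndufa4l2, known as a target of hypoxia signalling, was at 0 in every library.

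Of the 16 nuclear genes of complex V, 5 (31.2%) lay below all SDLN libraries in each skin library, where 53.6% of all genes tested did, and none passed the test. The catalytic subunit Atp5b was at 396, 383 and 16.4 CPM in skin Tregs and 769, 770 and 516 CPM in SDLN Tregs (log2 fold change -1.55, SE 1.01, adjusted p = 0.338). The other subunit of the catalytic head, Atp5a1, was far more even, at 507, 563 and 507 CPM against 759, 692 and 582 CPM (log2 fold change -0.36, SE 0.397, adjusted p = 0.638). Atp5o of the stalk was at 595, 496 and 85.8 CPM against 394, 306 and 657 CPM.

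The genes Atp5g1, Atp5g2 and Atp5g3 encode the same mature c-ring protein of the ATP synthase. Atp5g1 was at 145, 81.0 and 151 CPM in skin Tregs, below the 212, 174 and 301 CPM of SDLN Tregs. Atp5g2 was at 38.9, 55.1 and 42.5 CPM against 80.6, 67.2 and 51.4 CPM, and Atp5g3 at 0, 303 and 63.2 CPM against 306, 276 and 300.4 CPM. Per kilobase of exon, Atp5g3 was the highest of the 3 in SDLN Tregs, at a mean of 135 CPM per kilobase against 46.6 for Atp5g1 and 39.6 for Atp5g2. The length counts all annotated exons, 4912 bases for Atp5g1 and 2181 for Atp5g3, and thus widens the gap between these genes. Without it their SDLN means were 229 and 294 CPM. None of the 3 passed the test.

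Nuclear respiratory factor 1 (NRF1) is known to bind a palindrome (GCGCA followed by its reverse complement, TGCGC) in promoters of respiratory genes, and GA-binding protein, an ETS factor, binds CCGGAAGT. Promoters of 77 of the 95 nuclear genes were matched in RefSeq (build GRCm38.p6), and the 250 bases before each start were searched on both strands. The NRF1 letters occurred in 5 of the 77 (6.49%), against 0.88% of all genes and 1.21% of protein-coding genes, and the ETS letters in 3 (3.90%), against 3.23% and 4.26%. Matches for the NRF1 letters are shown for 4 genes of 3 groups, with the match in capitals and 15 bases on each side, and the fifth match was in Ndufa11.
Atp5g2 (chr15:102671065-102671104, - strand): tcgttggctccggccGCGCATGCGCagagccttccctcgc
Atp5k (chr5:108434425-108434464, - strand): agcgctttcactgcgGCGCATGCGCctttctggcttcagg
Cox6a1 (chr5:115349096-115349135, - strand): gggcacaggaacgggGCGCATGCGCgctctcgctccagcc
Ndufaf4 (chr4:24897955-24897994, + strand): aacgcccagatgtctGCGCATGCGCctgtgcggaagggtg
The genes with a match did not share a pattern of expression, since Ndufaf4 had no counts in skin Tregs, Cox6a1 was at 614 CPM in skin Tregs A and 0 in skin Tregs C, and Atp5g2 was over the floor in all libraries. A match is a description of these letters and no measure of binding.

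Other mitochondrial genes were examined through lists chosen by function. Of the 163 genes of 6 such lists that were tested, edgeR called 0 higher in skin Tregs (0 with an unadjusted p under 0.05), voom 0 and DESeq2 2, Cox16 and Mrpl33. Of 16 genes of the TCA cycle, 1 was lower in skin Tregs, Dlat of pyruvate dehydrogenase, while Mdh2 was at 1075, 361 and 714 CPM against 755, 599 and 1163 CPM. Of 78 mitochondrial ribosomal proteins, 20 were lower, with Mrpl33 at 210, 314 and 169 CPM against 111, 95.4 and 133 CPM as an example that edgeR did not call. Of 24 genes of protein import, 5 were lower, and of 22 assembly genes of complexes III, IV and V, 7 were lower. Each of these shares was under the 45.3% of all genes called lower. Over the 6 lists together, 41 of the 163 (25.2%) were lower in edgeR, 45 (27.6%) in DESeq2 and 75 (46.0%) in limma voom, which called 51.6% of all genes lower, so that the gap to all genes was narrow in voom.

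Of 15 genes that copy and express mitochondrial DNA, 6 were lower (Tfam, Polrmt, Twnk, Tefm, Mtpap and Supv3l1), all at the floor in every skin library. That share, 40.0%, was close to the 45.3% of all genes. Tfam, which packages mitochondrial DNA and starts its transcription, had 0 counts in skin Tregs and was at 62.8, 60.4 and 55.4 CPM in SDLN Tregs (adjusted p = 0.00713). The mitochondrial RNA polymerase Polrmt likewise had 0 counts in skin Tregs and was at 39.2, 33.0 and 21.5 CPM in SDLN Tregs (adjusted p = 0.00350). In the same skin libraries the mRNAs that this polymerase makes, such as mt-Cytb and mt-Co1, were at 1927 CPM or more. Of 9 regulators tested, 3 (33.3%) were lower in edgeR (Tfam, Gabpa and Esrra). The share was 66.7% in limma voom, which called 51.6% of all genes lower. Nrf1 was at 376, 13.03 and 0.111 CPM against 112, 146 and 114 CPM.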

How the data were processed

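Reads of each library were trimmed by the authors with Trimmomatic 0.36, mapped to GRCm38 with STAR 2.5.2b and counted with featureCounts of Subread 1.5.2 as unique counts within exons. The deposited table holds these raw counts, 1 row per Ensembl gene and not normalized. The annotation release, strand setting and handling of duplicates are not given in the sources used here, and intervals and floors cover counting error only. Symbols came from GENCODE M21.

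CPM are relative to the library total. Skin Tregs were compared with SDLN Tregs in edgeR 4.0.16 (R 4.3.3; filterByExpr, TMM, robust glmQLFit, glmQLFTest, tissue as the only term), with a threshold of 0.05 on p-values adjusted over all 13572 genes. SE were derived from the F statistic. Alternatives used DESeq2 1.42.0 and limma 3.58.1. On simulated data, 96% of 200 genes with a log2 change of 3 were recovered at a dispersion of 0.1 and 0% at 2, and the dispersion of the data was 2.04. Sums over genes are given without p-values, and an exact two-sided permutation test of 3 against 3 libraries cannot go below 0.10. Copies were found with BLAST+ 2.17.0. Members, gene lists and tests were chosen with earlier results of these data known. Named genes were all mitochondrial genes, the 3 most abundant nuclear subunits per complex, called genes, a short list of core subunits and the isoform sets, and others are named after their values were seen. The values of 1 nuclear gene are counted in the totals and not reported here.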

Additional observations from a re-analysis of the deposited data

How the results depend on the processing

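The planned fit with the titles' replicate number as a block was not run, since no source ties the lettered columns to the numbers. A fit with the column letter as a replicate block, chosen after seeing the data, called 0 genes higher and 8 lower, 1 of them a nuclear subunit and 2 mitochondrial, and changed no edgeR call among the 21 genes of oxidative phosphorylation for which it was compared. No source says that a letter is shared between tissues, and the deviations of libraries with the same letter correlated at 0.0199, -0.021 and 0.0753 across 13572 genes. Of the genes called lower, the 8 in the main test became 13 with limma voom, 0 of 56 tested when every library had to have at least 10 counts, and 7 to 12 when 1 library was left out. The limit of 10 counts removes all 8 before the test, so that its 0 follows from the filter, and 9 of all 1396 genes were called lower under it (0.645%). For nuclear subunits the 1 became 2 with DESeq2, 5 with voom, 0 with at least 10 counts and 0 when drawn down, and 1 to 4 when 1 library was left out. The 1 subunit, Cox6b2, was not tested when drawn down, so that its call was lost to the filter there. For mitochondrial genes the 2 became 0 with at least 10 counts, 1 when drawn down, 1 when summed with their copies, and 1 to 2 when 1 library was left out (1 without SDLN Tregs B or C). The gene mt-Co3 was not tested when drawn down or without SDLN Tregs B or C. DESeq2 called 1 gene higher, and leaving out any library gave 0. The gene mt-Cytb was called lower without skin Tregs C alone (adjusted p = 0.0229).

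The difference in mitochondrial share, skin minus SDLN, was -0.0202 percentage points and turned to 0.0683 without the 50 most abundant genes and to 0.0758 without skin Tregs B (-0.101 to 0.0758 over left-out libraries). The difference in the log2 ratio of mitochondrial to nuclear counts was 0.19 and turned to -2.43 with medians per kilobase (0.087 to 0.30 over left-out libraries). That of the nuclear share was -0.282 points (-0.423 to -0.138) and that of nuclear genes detected -20.7 (-23.5 to -15.5). Signs turned for single genes that passed no test. For mt-Co1 the log2 fold change was -0.055 with at least 10 counts, -0.098 without skin Tregs A and -0.086 without skin Tregs C (-0.098 to 0.31). For mt-Nd1 it was -0.042 with at least 10 counts, -0.062 without skin Tregs A and -0.14 without SDLN Tregs C (-0.14 to 0.27), and for mt-Nd4 -0.062 without skin Tregs C and -0.0031 without SDLN Tregs C (-0.062 to 0.31). For Sdha it was 0.29 without skin Tregs A (-0.99 to 0.29), and for Cycs -0.30 without skin Tregs B (-0.30 to 0.56). The median log2 fold change of all genes tested was -2.21, -2.33 with TMMwsp factors, -4.68 with voom, -3.27 without a filter, 0.077 with at least 10 counts, -1.31 when drawn down, -8.05 with the letter block, and -7.41 to -1.69 when 1 library was left out. The causes were not tested. SDLN libraries drawn down to the total of skin Tregs A kept 88 to 89 nuclear genes over the floor, against 60 in skin Tregs A.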

Other observations

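The chromosome 1 copies of mt-Atp6, mt-Co3 and mt-Co2 were counted in every library, in which these 3 mitochondrial genes were at 1.33 CPM or less. Gm10925, the copy of mt-Atp6, was at 37.1, 52.5 and 71.2 CPM in skin Tregs and 25.3, 48.9 and 52.1 CPM in SDLN Tregs. Gm28437, the copy of mt-Co3, was at 13.6, 10.8 and 7.31 CPM against 10.9, 10.6 and 11.01 CPM, and Gm28661, the copy of mt-Co2, at 5.07, 20.3 and 8.30 CPM against 8.98, 8.16 and 5.02 CPM. The copies of mt-Nd3 (Gm28438) and mt-Nd4l (Gm10222) had at most 2 counts in a skin library. In contrast, Gm28439, which matches mt-Nd4 over 876 bases without a mismatch, was at 0.536 CPM or less while mt-Nd4 was over 300 CPM in each library.

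Polg2, an accessory subunit of the mitochondrial DNA polymerase, was at 0, 113 and 488 CPM in skin Tregs and 19.6, 23.97 and 25.6 CPM in SDLN Tregs, without passing the test (edgeR adjusted p = 0.402). It stood apart from the 6 genes of its list that were called lower.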
